A study of Mus musculus with 6 samples.

Results

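Genes known from bone formation and mineral handling, Fgf23, Spp1, Runx1, Runx2, Sp7, Dmp1, Phex, Ibsp, Alpl and Bglap, were looked up by name in RNA sequencing of sorted mouse skin cells. Of these 10 genes among the 23934 rows of the table, 8 had a row, and the expression of Ibsp and Bglap was not analysed here. The 10 were chosen by their knockout and control values in these same libraries, so their differences between the groups are given as a description and without p-values. All samples are labelled as skin of mice at day 50. The 3 knockout samples carry 2 floxed Zfp750 alleles (fl/fl), Rosa26 -/- and 1 copy of a tamoxifen-activated recombinase driven from Lrig1, named Lrig1-CreER in 1 sample and Lrig1-CreERT2 in 2. Of the 3 control samples, which carry the same recombinase (Lrig1-CreER in 1 and Lrig1-CreERT2 in 2), 2 are wt/fl with Rosa26 -/- and 1 is wt/wt with Rosa26 +/-. Knockout and control mice alike received 4-hydroxytamoxifen as pups, between day 4 and day 7 or between day 5 and day 8. The sort was of skin cells of mice carrying the red reporter tdTomato, for which no cell type is labelled, and whether libraries come from separate mice is not labelled either. Lrig1 is known as a marker of stem cells of the upper hair follicle. Estimated depth was 16940656 to 20222372 reads in the knockout libraries and 15310161 to 20705441 in the control libraries. The libraries are called knockout S5, S6 and S7 and control S2, S3 and S4 after the numbers in the column names. Zfp750, the targeted gene, was at normalized counts of 4.90, 1.82 and 7.16 in knockout S5, S6 and S7 and 41.9, 3.75 and 314 in control S2, S3 and S4. Control S3 lay within the knockout range, so the gene does not check that library's label, and fits without each library are given with the results.

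FGF23 is a hormone made mainly by osteocytes that acts on the kidney through FGF receptors and the co-receptor Klotho to lower phosphate and active vitamin D. RUNX2 and, below it, SP7 (osterix) are the transcription factors that commit cells to the osteoblast fate, while RUNX1 is best known from blood stem cells and is also used in hair follicle stem cells and their mesenchyme. SPP1 (osteopontin), DMP1 and IBSP belong to the SIBLING family of acidic phosphoproteins of bone and dentin, and SPP1 is also made by macrophages and injured tissues. ALPL and PHEX are enzymes of mineralization and BGLAP is osteocalcin, a protein of mature bone.

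Promoter sequences from RefSeq (GRCm38.p6) were found for 9 of the 10 genes, 13 promoters in all, and the 250 bases before the start of the 3 genes called higher and of Runx2 are shown, since Runx factors are among the genes measured. They are written 5′ to 3′ in the direction of the gene, and capitals mark the Runx core TGTGGT or its reverse complement. For Spp1 and for Runx1, each with 2 promoters listed, the first is shown.
Fgf23 (chr6:127072652-127072901, plus strand): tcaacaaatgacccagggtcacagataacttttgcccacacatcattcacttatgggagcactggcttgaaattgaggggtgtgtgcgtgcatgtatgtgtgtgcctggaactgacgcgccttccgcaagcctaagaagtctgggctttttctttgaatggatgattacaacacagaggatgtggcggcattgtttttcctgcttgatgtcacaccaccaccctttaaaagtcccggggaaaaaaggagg
Spp1 (chr5:104434861-104435110, plus strand): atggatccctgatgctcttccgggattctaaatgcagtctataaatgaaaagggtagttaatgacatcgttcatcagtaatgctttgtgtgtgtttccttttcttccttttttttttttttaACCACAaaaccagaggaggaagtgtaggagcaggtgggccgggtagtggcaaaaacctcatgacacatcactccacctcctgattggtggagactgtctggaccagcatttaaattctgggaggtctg
Runx1 (chr16:92826075-92826324, minus strand): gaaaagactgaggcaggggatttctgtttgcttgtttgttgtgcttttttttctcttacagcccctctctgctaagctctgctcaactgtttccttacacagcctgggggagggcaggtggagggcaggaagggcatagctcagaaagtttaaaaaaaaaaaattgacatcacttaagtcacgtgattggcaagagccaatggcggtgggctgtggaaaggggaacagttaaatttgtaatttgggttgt
Runx2 (chr17:44814628-44814877, minus strand): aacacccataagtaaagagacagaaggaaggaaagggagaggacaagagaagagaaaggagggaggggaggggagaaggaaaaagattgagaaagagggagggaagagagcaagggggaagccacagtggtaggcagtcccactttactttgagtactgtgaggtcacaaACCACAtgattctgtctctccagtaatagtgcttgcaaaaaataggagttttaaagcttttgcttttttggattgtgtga
The core begins 128 bases before the start in Spp1 and 80 bases before it in Runx2, and these letters are in neither the Fgf23 window nor the Runx1 window shown. Searched on both strands, the core was in 4 of the 13 promoters, 1 each of Spp1, Runx2, Dmp1 and Bglap, and in 14% of all 32851 promoters of this length. The second Spp1 promoter did not hold it. The AP-1 letters TGANTCA were in 0 of the 13, and in 6.75% of all. A match of letters is not a binding site.

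Fgf23 and Spp1 had few reads in control cells and many in every knockout library. Fgf23 (ENSMUSG00000000182, chromosome 6) stood at normalized counts of 949, 949.8 and 727 in knockout S5, S6 and S7, against 5.08, 5.00 and 7.57 in control S2, S3 and S4. A normalized count is the authors' estimated number of reads of the gene divided by 1 scaling factor per library, and these values stand for 968, 1042 and 914 reads in the knockouts and 4, 4 and 9 in the controls. The groups lay far apart, and the knockout libraries were within a narrow band. The table places the gene at 127049865 to 127058372 on the plus strand of chromosome 6, in coordinates of a build that it does not name. Means were 875 ± 128 in knockouts and 5.88 ± 1.46 in controls (SD, n = 3 each), a ratio of 149. On the log2(value + 9.15) scale of the limma fit over all genes, which understates the change of low genes, the difference was 5.87 ± 0.22 (SE).

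Spp1 (ENSMUSG00000029304, chromosome 5, 104582984 to 104588917, plus strand, in the table's coordinates), the osteopontin gene, stood at 989, 2136 and 1923 in knockout S5, S6 and S7, against 14.0, 17.5 and 17.7 in control S2, S3 and S4. Knockout S5 had the least of the knockout libraries, still far above every control. The means were 1683 ± 609.9 in knockouts and 16.4 ± 2.08 in controls (SD, n = 3 each), a ratio of 103, and the log2 difference was 5.98 ± 0.31 (SE). A transcript of unsettled type on the same strand, Gm42793, overlaps Spp1 and was at 4.90, 24.8 and 7.96 in the knockouts and 0 in all controls. In bulk samples such as these, more cells of a type and more RNA per cell cannot be told apart.

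Runx1 (ENSMUSG00000022952, chromosome 16, 92398354 to 92623038, minus strand, in the table's coordinates) was also separated between the groups. It stood at 6287, 8161 and 5646 in knockout S5, S6 and S7, against 1498, 694 and 1233 in control S2, S3 and S4. Unlike Fgf23 and Spp1, it had many reads in controls too, with means of 6698 ± 1307 in knockouts and 1142 ± 409.6 in controls (SD, n = 3 each). The ratio was 5.87 and the log2 difference 2.60 ± 0.30 (SE).

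Runx2 (ENSMUSG00000039153, chromosome 17), the osteoblast master factor, differed far less. It stood at 747, 932 and 674 in knockout S5, S6 and S7, against 456, 403 and 559 in control S2, S3 and S4. The groups did not overlap, yet the lowest knockout and the highest control were close. The log2 difference was 0.72 ± 0.19 (SE), which the fit over all genes did not call, and without control S4 it was 0.84 ± 0.20 and called. Part of Runx2 overlaps Supt3 on the opposite strand, at 82.4, 56.5 and 79.6 in knockouts and 99.1, 119 and 82.4 in controls, and the sources used here do not say if reads were counted by strand.

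**Figure D1:**
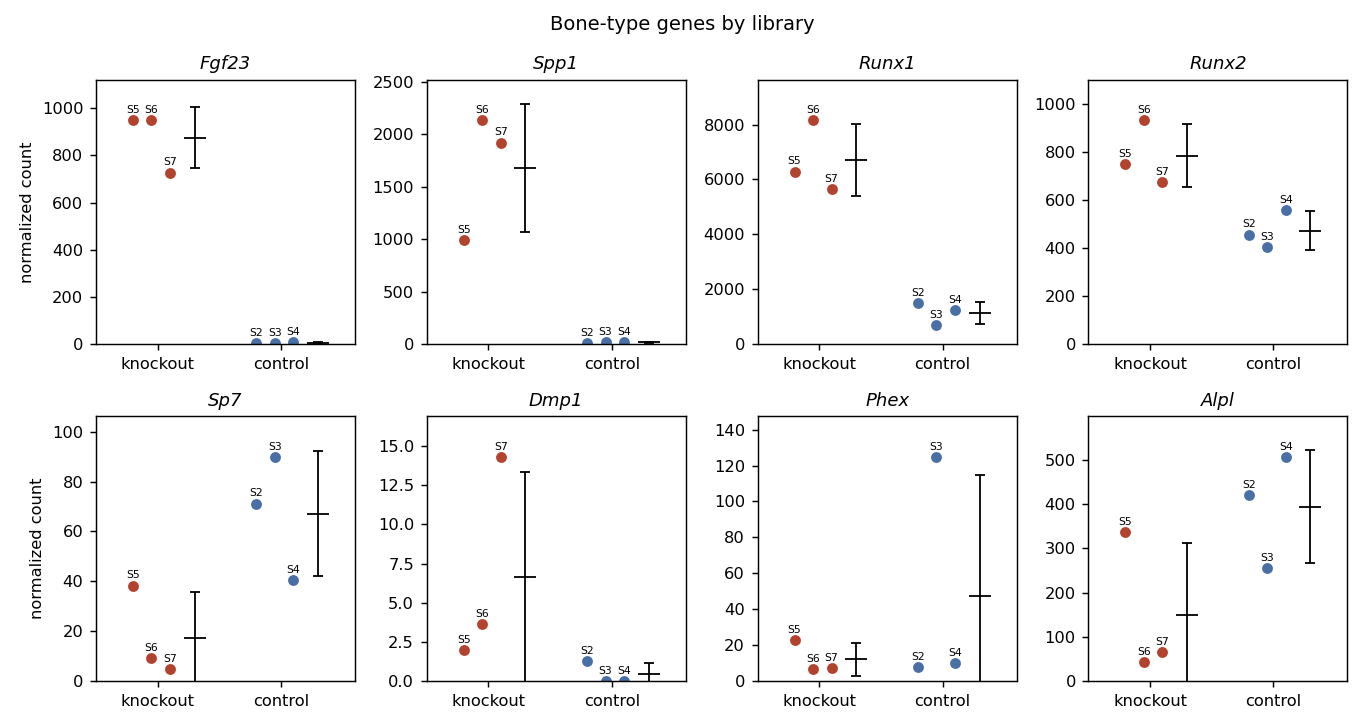
Normalized counts of the 8 bone-type genes with a row, by library, knockout left and control right, with 1 linear axis from 0 per gene. Points are libraries, and the black bar and whisker are the mean and SD (n = 3, whiskers that reach below 0 are not drawn there). Fgf23, Spp1 and Runx1 are high in all 3 knockout libraries, while Sp7 and Alpl are lowest in knockout S6 and S7, with S5 nearer to the controls.

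The remaining osteoblast factor and the mineralization enzyme did not follow Runx1. Sp7 (osterix, chromosome 15) stood at 38.2, 9.11 and 4.77 in knockout S5, S6 and S7, against 71.2, 89.9 and 40.4 in control S2, S3 and S4. The groups did not overlap, but knockout S5 lay just under control S4. Its log2 difference was -1.68 ± 0.51 (SE) and was not called. Alpl (tissue-nonspecific alkaline phosphatase, chromosome 4) stood at 336, 41.9 and 66.0 in knockouts, against 421, 255 and 507 in controls. Knockout S5 was inside the control range for Alpl, so the groups overlapped, and the log2 difference of -1.82 ± 0.67 (SE) was not called. Without knockout S5 the fit called both as lower, at -2.20 ± 0.42 for Sp7 and -2.65 ± 0.36 for Alpl. Alpl is also a gene of the dermal papilla, the mesenchyme of the hair follicle. The 9 dermal papilla markers, Alpl among them, summed to 1223, 395 and 589 CPM (normalized counts per 1000000 of the library total) in knockouts and 707, 393 and 814 in controls. These sums are per library total, unlike the normalized counts given for Alpl and Sp7, and the total was largest in control S3. Vcan had the largest part in the sum and overlapped between the groups. It was at normalized counts of 18439, 4585 and 8690 in knockouts and 10134, 8473 and 9665 in controls. Of the 9 markers 8 were tested, and 1 (Hhip) was called lower and 0 higher by limma, against 2.59% and 4.12% of all tested genes. At an unadjusted p under 0.05, 2 (Alpl and Hhip) were lower and 0 higher by limma, against 10.8% and 12.4% of all tested genes. The part of these markers in the Alpl and Sp7 values was not tested.

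Dmp1 had few reads in every library, and so had Phex in 5 of 6. Dmp1 (chromosome 5), which in osteocytes holds FGF23 down, had 2, 4 and 18 reads in knockout S5, S6 and S7, against 1, 0 and 0 in control S2, S3 and S4, or normalized counts of 1.96, 3.65 and 14.3 against 1.27, 0 and 0. A count of 0 allows up to 3 reads, a normalized count of 3.75 in control S3 and 2.52 in control S4, so knockout S7 alone stood clear of the controls. Phex (chromosome X), the endopeptidase whose loss raises FGF23 in inherited rickets, had 22.6, 6.38 and 7.16 in knockouts, against 7.62, 125 and 10.1 in controls. Control S3 was high for Phex and the other 5 libraries lay between 6.38 and 22.6. Neither Dmp1 nor Phex passed the filter on low values. Fits without the filter put the log2 difference at 0.65 ± 0.29 (SE) for Dmp1 and at -0.81 ± 0.76 (SE) for Phex, on the same understated scale, and called neither.

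Of the 10 genes, 6 were tested, and 3 of these (Fgf23, Spp1 and Runx1) were called higher by limma and the other 3 were not called, at 4.12% of all 15935 tested genes called higher, 2.59% lower and 6.71% either way (Benjamini-Hochberg adjusted p under 0.05, the call used throughout). Groups did not overlap in 5 of the 6, against 28.8% of all tested genes. Since the genes were chosen with this contrast known, nothing is read from these counts. In the 6 fits that left out 1 library the log2 difference was 5.81 to 6.00 for Fgf23, 5.77 to 6.32 for Spp1 and 2.28 to 2.83 for Runx1, given as the spread of the values and not as support for genes chosen on this contrast.

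**Figure D2:**
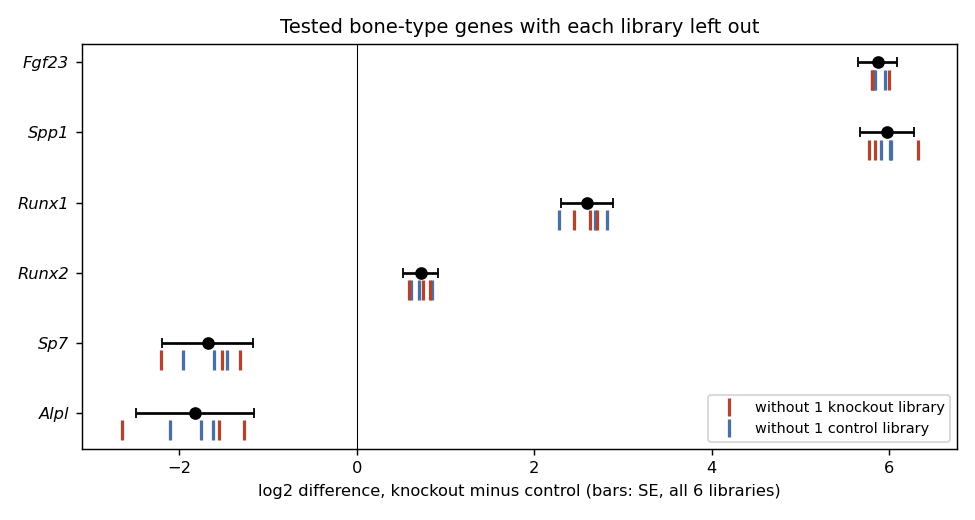
Log2 difference, knockout minus control, of the 6 tested bone-type genes. Black points and whiskers are the fit of all 6 libraries with its SE, and ticks are fits with 1 knockout library (red) or 1 control library (blue) left out. The ticks of Alpl spread most, from -2.65 to -1.27, and those of Fgf23 least, from 5.81 to 6.00.

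No tested neighbour of Fgf23 or Spp1 was called, and with so few tested, nothing is read from that. Within 250 kb of Fgf23, in the table's own coordinates, 6 other genes were tested and 0 called by limma, against 6.71% of all tested genes. At an unadjusted p under 0.05, 2 were lower and 0 higher by limma, against 10.8% and 12.4% of all tested genes. Its nearest tested neighbour, Tigar, was at 138, 118 and 158 in knockouts and 112, 127 and 105 in controls, and Ccnd2 (cyclin D2) at 3151, 3381 and 3886 in knockouts and 4467, 4554 and 5139 in controls. Around Spp1, 3 other genes were tested and 0 called by limma, 1 having an unadjusted p under 0.05, and the adjoining Pkd2 was at 4467, 4852 and 3834 in knockouts and 3350, 5271 and 2790 in controls. The SIBLING genes Dspp and Mepe were not analysed here.

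Related genes were taken from lists drawn up from textbook knowledge, with earlier results of these libraries known. Without the 10 genes above, the lists held 114 genes, of which 84 were tested. Of the 84, 16 rose (19.0%, against 4.12% of all tested genes) and 1 fell (1.19%, against 2.59%), and 67 did not pass. Their median log2 difference was 0.26, against 0.01 over all tested genes. Since the lists were drawn up with earlier results known, nothing is read from these counts or from those of the single lists. Mmp13, Mmp12, Tnfsf11, Atp6v0d2 and Comp were under 1 CPM in every control, so they passed the filter through the knockout libraries alone. At an unadjusted p under 0.05, 12.4% of all tested genes were higher and 10.8% lower, beside which the unadjusted counts of each list stand. Rescaling every library to a common total moved the median of all genes to 0.31, so differences are relative to the authors' scaling, and all 17 called genes kept their direction there. Of these 17 genes, 6 (Runx3, Mmp13, Mmp9, Tnfrsf11b, Fgfr1 and Col24a1) were called in all 6 fits that left out 1 library, and the other 11 lost their call in at least 1.

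Among 18 tested partners and modulators of the Runx factors, 1 rose, Runx3 (5.56%, near the 4.12% of all tested genes), and 0 fell by limma, with 4 and 1 having an unadjusted p under 0.05. Runx3, the third factor of the family and known from T cells and sensory neurons, was at 791, 1518 and 1339 in knockout S5, S6 and S7, against 118, 99.9 and 93.4 in control S2, S3 and S4 (log2 difference 3.39 ± 0.26 SE, limma adjusted p = 0.000990). Every knockout was several times every control. Cbfb, the shared DNA-binding partner of all Runx factors, was at 1539.5, 1438 and 1388 in knockouts and 1238, 1228 and 1097 in controls, a log2 difference of 0.29 ± 0.14 that did not pass. Twist1, which restrains RUNX2 in bone, was at 2368, 2544 and 1749.5 in knockouts and 2413, 3540 and 1432 in controls, with overlapping groups.

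Of 4 tested genes known as RUNX2 targets in bone and cartilage, beside the 10, 3 rose by limma (75%, against 4.12% of all tested genes). By limma 0 fell (against 2.59%), and 3 were higher and 0 lower at an unadjusted p under 0.05. Mmp13, the interstitial collagenase of bone and growth plate, was at 2702, 2880.2 and 3306 in knockouts, against 7.62, 11.2 and 6.73 in controls (7.40 ± 0.19 SE, limma adjusted p = 9.26e-06). The decoy receptor gene Tnfrsf11b, osteoprotegerin, was at 1216, 1158 and 770.1 in knockouts, against 173, 129.9 and 188 in controls (2.60 ± 0.23, limma adjusted p = 0.00183). Its ligand gene Tnfsf11, RANKL, the signal that makes osteoclasts, had 25, 233 and 229 reads in knockouts, against 0, 2 and 3 in controls (3.39 ± 0.69, limma adjusted p = 0.0319). Knockout S5 was far lower than S6 and S7 for Tnfsf11, and fits lacking S2, S3, S6 or S7 did not call it (limma adjusted p up to 0.121). The fourth tested target, the vessel growth factor Vegfa, was at 1150.2, 1443 and 1022 in knockouts and 1475, 1510.1 and 1293 in controls and did not pass.

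**Figure D3:**
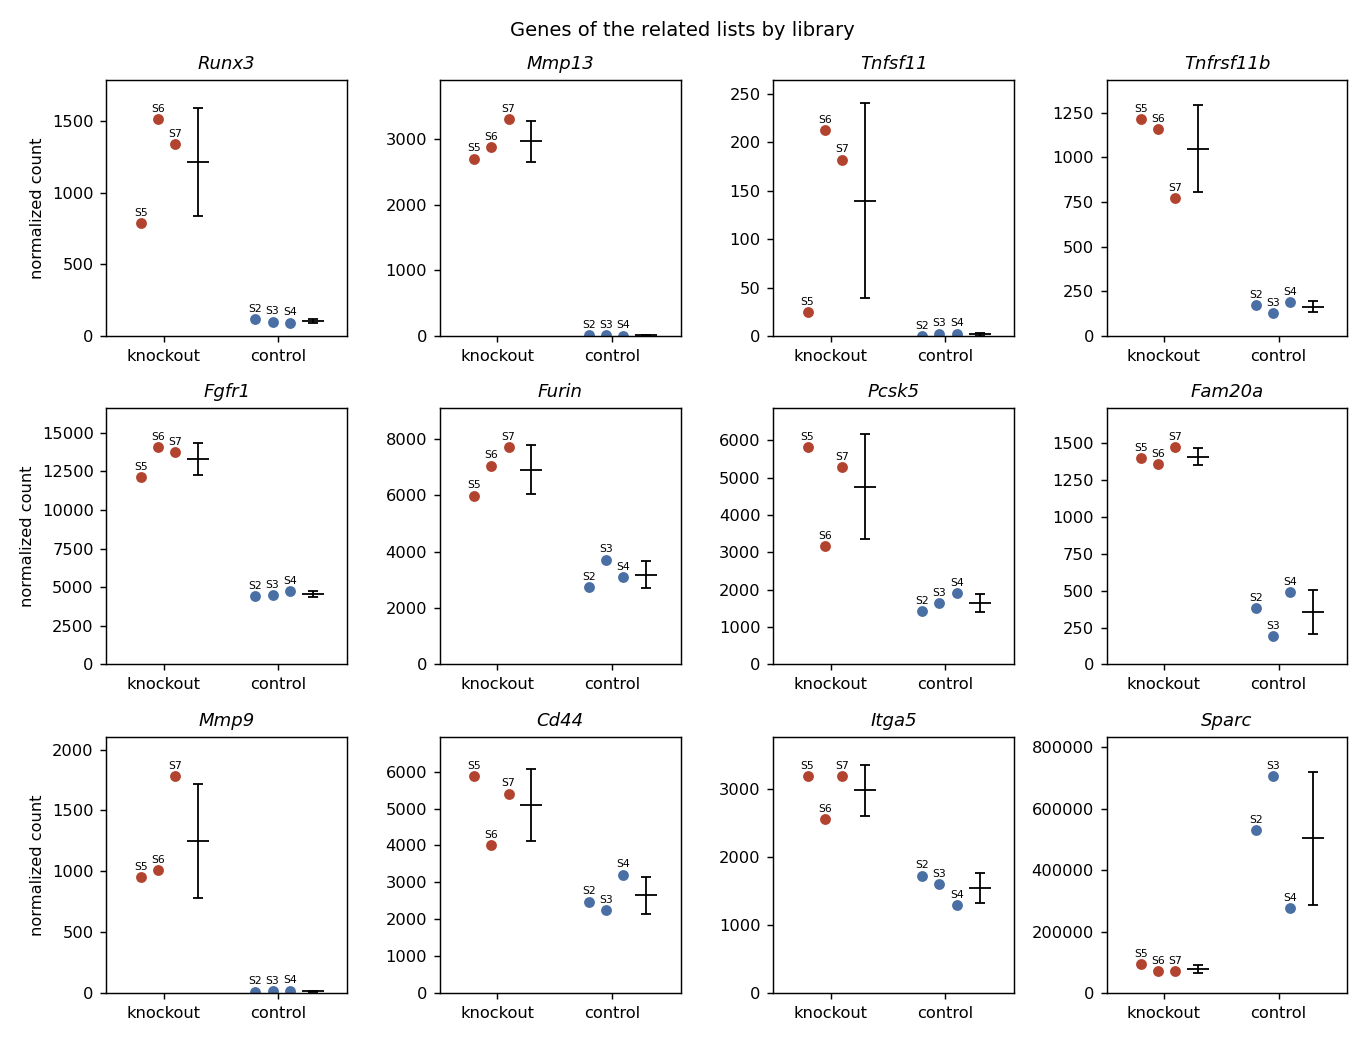
Normalized counts of 12 called genes of the related lists by library, knockout left and control right, with linear axes from 0. Points are libraries and the bar and whisker are the mean and SD (n = 3). In each panel the knockout and control libraries are separate. All but Sparc are higher in the knockout.

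Of 15 tested genes of FGF23 processing, reception and phosphate handling, 4 rose by limma (26.7%, against 4.12% of all tested genes). By limma 0 fell (against 2.59%), and 5 were higher and 2 lower at an unadjusted p under 0.05. Fgfr1, the main receptor for FGF23 in kidney and a general fibroblast receptor, was at 12128, 14058 and 13767 in knockouts, against 4412, 4484 and 4745 in controls (1.55 ± 0.17 SE, limma adjusted p = 0.00357). Its co-receptor gene Kl, Klotho, which gives FGF23 its kidney action, was at 0.981, 0 and 0 in knockouts and 3.81, 1.25 and 7.57 in controls, under the filter in both groups. The other receptor genes did not pass, Fgfr2 being at 1052, 1307 and 1008 in knockouts, against 2039.7, 3035 and 1682 in controls, and Fgfr4 at 549, 906 and 421 in knockouts, against 2026, 3065 and 954 in controls. Without control S4, Fgfr2 and Fgfr4 were both called lower. Furin, a protease that inactivates FGF23 by cutting it, was at 5982, 7046 and 7698 in knockouts, against 2754, 3716 and 3091 in controls (1.12 ± 0.19, limma adjusted p = 0.0160). The related convertase gene Pcsk5 was at 5811, 3166 and 5289 in knockouts, against 1425, 1632 and 1902 in controls (1.48 ± 0.25, limma adjusted p = 0.0175). The phosphate exporter gene Xpr1 was 0.89 ± 0.15 higher (limma adjusted p = 0.0175). With 1 library left out, Furin was not called in fits lacking S2, S6 or S7 (limma adjusted p up to 0.0831), Pcsk5 in those lacking S2 or S7 (up to 0.0838) and Xpr1 in those lacking S2, S3, S6 or S7 (up to 0.0785). Galnt3 and Fam20c, whose enzymes shield FGF23 from cutting or prime it for cutting, did not pass. Galnt3 was at 3.92, 16.4 and 21.5 in knockouts and 11.4, 5.00 and 42.9 in controls, and Fam20c at 591, 282 and 396 in knockouts and 574, 571 and 433 in controls.

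Enzymes, transporters and inhibitors of mineral formation gave 1 rise and 1 fall among 14 tested genes, or 7.14% each. Of all tested genes, 4.12% rose and 2.59% fell. At an unadjusted p under 0.05, 3 of the 14 were higher and 4 lower by limma. Fam20a, a pseudokinase that works with FAM20C in enamel, was at 1398, 1357 and 1473 in knockouts, against 382, 191 and 489 in controls (2.06 ± 0.32 SE, limma adjusted p = 0.0115; 0.0557 without S6). Sparc, osteonectin, a collagen-binding protein abundant in bone and in dermal fibroblasts, was at 93625, 70311 and 70573 in knockouts, against 529383, 707732 and 275783 in controls (-2.60 ± 0.61, limma adjusted p = 0.0483). Its groups were wide apart, but of the fits lacking 1 library, the one lacking S4 alone called it (limma adjusted p up to 0.198 in the others), and the fit without the filter on low values did not (0.147). Mgp, an inhibitor of calcification, was at 1984, 997 and 932 in knockouts, against 630.3, 372 and 645 in controls, and did not pass (1.19 ± 0.34, limma adjusted p = 0.0860). The pyrophosphate genes Enpp1 and Ank overlapped between the groups.

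Osteoblast and osteocyte genes were called in both directions. Of 14 tested beyond the 10, 1 rose and 1 (Sparc) fell, or 7.14% each, against 4.12% and 2.59% of all tested genes. At an unadjusted p under 0.05, 2 were higher and 2 lower by limma. A positive difference was found in 6 of the 14, for a median of -0.10. The 1 that rose was Col24a1, a minor fibrillar collagen of developing bone, at 283, 493 and 288 in knockouts, against 55.9, 13.7 and 46.3 in controls (3.02 ± 0.43 SE, limma adjusted p = 0.00923). Col1a1 and Col1a2, the chains of bone and dermal collagen I, were lower without passing, at -2.67 ± 1.21 and -2.71 ± 0.92, and both were called lower with a common total and with no intensity trend. Pth1r, the parathyroid hormone receptor gene of osteoblasts, was at 2071, 1666 and 1440.0 in knockouts and 1400.4, 3225 and 1284 in controls. The osteocyte inhibitor gene Sost was at 18.6, 28.3 and 1.59 in knockouts and 10.2, 2.50 and 1.68 in controls, under the filter, as was the osteocalcin relative Bglap3 at 4.90, 18.2 and 28.6 in knockouts and 6.35, 0 and 5.89 in controls.

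Of 13 tested receptors of osteopontin and proteases that cut it, 4 rose by limma (30.8%, against 4.12% of all tested genes). By limma 0 fell (against 2.59%), and 6 were higher and 0 lower at an unadjusted p under 0.05. The gelatinase gene Mmp9 was at 952, 1007 and 1785 in knockouts, against 10.2, 14.99 and 18.5 in controls (5.68 ± 0.29 SE, limma adjusted p = 0.000239). Macrophage elastase, Mmp12, was at 70.6, 112 and 519.5 in knockouts, against 5.08, 3.75 and 14.3 in controls (3.41 ± 0.68, limma adjusted p = 0.0289), which fits lacking S2, S3 or S6 did not call (up to 0.113). The hyaluronan and osteopontin receptor gene Cd44 was 0.94 ± 0.22 higher (limma adjusted p = 0.0449) and the integrin gene Itga5 0.95 ± 0.18 higher (limma adjusted p = 0.0234). Of the fits lacking 1 library, the one lacking S4 alone called them, with limma adjusted p-values in the others up to 0.167 for Cd44 and 0.0808 for Itga5. The integrin genes Itgav and Itgb3, which form the classic osteopontin receptor of osteoclasts, overlapped between the groups.

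Of 10 tested osteoclast genes, 4 rose by limma (40%, against 4.12% of all tested genes) and 0 fell (against 2.59%). At an unadjusted p under 0.05, 4 were higher and 0 lower by limma. Of the 4 that rose, 3 were Mmp9, Tnfsf11 and Tnfrsf11b. The fourth was Atp6v0d2, a proton pump subunit of osteoclasts and macrophages, with 25, 48 and 119 reads in knockouts, against 0, 2 and 0 in controls (2.52 ± 0.46, limma adjusted p = 0.0219), which fits lacking S2, S6 or S7 did not call (up to 0.0865). The resorption genes Ctsk and Acp5 overlapped. Ctsk was at 13548, 17378 and 14181 in knockouts and 21192, 14898 and 8638 in controls, and Acp5 at 68.6, 79.3 and 550.5 in knockouts and 81.3, 43.7 and 255 in controls. Of 6 tested cartilage genes, 1 rose (16.7%, against 4.12% of all tested genes). It was Comp, with 23, 36 and 49 reads in knockouts, against 0, 3 and 2 in controls (1.88 ± 0.35, limma adjusted p = 0.0224). Fits lacking S2, S6 or S7 did not call Comp (up to 0.100). No cartilage gene fell by limma, and 2 were higher and 0 lower at an unadjusted p under 0.05. Col2a1, the defining collagen of cartilage, was at 1.96, 6.38 and 2.39 in knockouts and 2.54, 6.25 and 1.68 in controls.

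**Figure D4:**
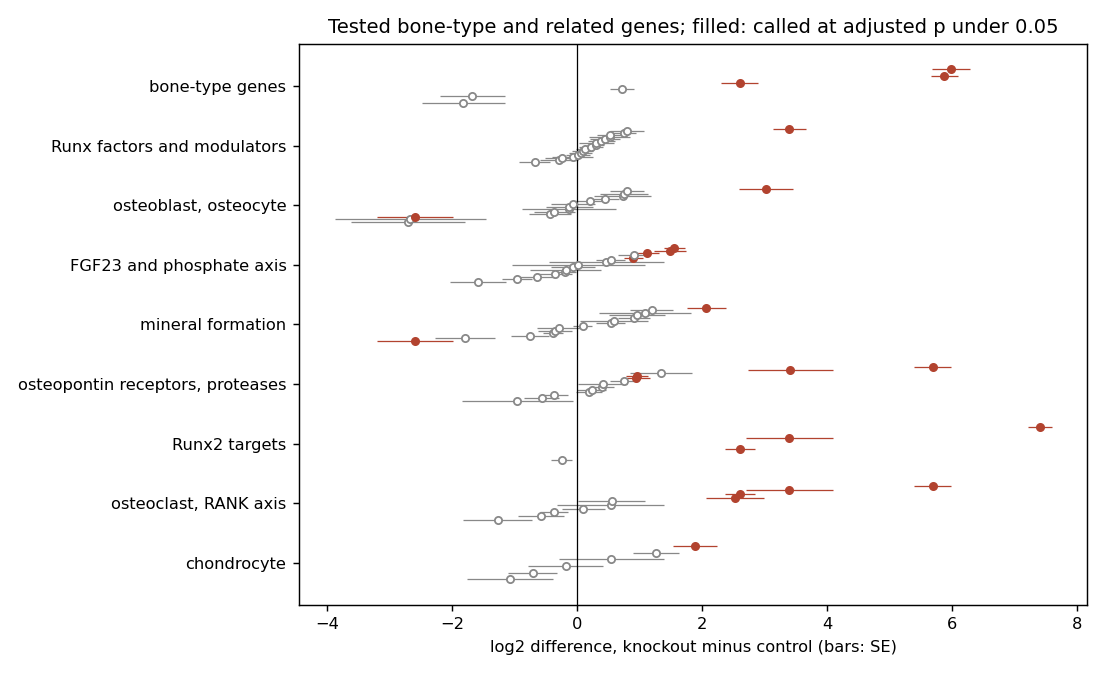
Log2 difference, knockout minus control, with its SE, for the tested bone-type genes and the tested genes of each related list without them, 1 point per gene. Filled red points passed at adjusted p under 0.05 and open grey points did not. A gene on several lists is drawn in each. Mmp13 stands farthest right at 7.40, and the lists other than the RUNX2 targets have a median between -0.10 and 0.54.

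The genes whose levels ran most like the 3 called ones over the 6 libraries were found by Pearson's r of log2(value + 9.15) among 10525 tested genes with a mean of at least 5 CPM. With so few libraries in separated groups, r tends to be high for genes that differ between the groups, and it is given as a description. Nearest to Fgf23 were B4galt5, Fmnl3, Bpgm and Mmp11 (r = 0.998 to 0.999), of which the stromal protease gene Mmp11 was at 12418, 14674 and 13753 in knockouts, against 483, 393 and 479 in controls. Spp1 ran closest to Fgfr1, Boc, Col7a1 and Serpina3f (r = 0.997 to 0.999), and Runx1 to Il15ra, Col24a1, Rab20 and Cdc42ep3 (r = 0.995 to 0.997).

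Markers of cell types that could carry these transcripts also differed between libraries. The 8 fibroblast markers, all with a row, summed to 73053, 59974 and 63513 CPM in knockouts and 236277, 345191 and 184606 in controls. Most of that sum came from the 3 collagen genes Col1a1, Col1a2 and Col3a1, which were lower with groups apart but not called. Groups were apart and lower in 13.1% of all tested genes. Of the 8, all tested, 2 (the receptor genes Pdgfra and Pdgfrb) rose and 0 fell by limma, against 4.12% and 2.59% of all tested genes. Keratinocyte markers (8 of 8 with a row) summed to 208, 189 and 1473 CPM in knockouts and 331, 23.0 and 1819 in controls. All 8 were tested, and 1 (Krt10) was called lower and 0 higher by limma, against 2.59% and 4.12% of all tested genes. The others overlapped between the groups, with differences in both directions.

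Of the 10 macrophage markers, 9 were tested and 0 called by limma. At an unadjusted p under 0.05, 5 were higher and 0 lower by limma, against 12.4% and 10.8% of all tested genes. The 10 markers summed to 316, 479 and 1390.2 CPM in knockout S5, S6 and S7 and 254, 185 and 269 in the controls. Gpnmb, which overlapped between the groups, had a large part in that sum, at normalized counts of 3516, 5908 and 7150.4 in knockouts and 3728, 3299 and 2132 in controls. Csf1r and Cd68 overlapped too. Csf1r was at 266, 173 and 1760 in knockouts and 864, 1096 and 455 in controls (log2 difference -0.78 ± 0.80 SE). Cd68 was at 128, 185 and 559 in knockouts and 173, 169 and 198 in controls. In 4 of the 10 markers, the untested Trem2 among them, every knockout was above every control, which held for 15.7% of all tested genes. C1qa, a complement gene, was at 174, 97.5 and 1394 in knockouts and 26.7, 9.99 and 32.0 in controls. The mannose receptor gene Mrc1 was at 349, 371 and 4266 in knockouts and 38.1, 52.5 and 301 in controls. Itgam was at 62.8, 72.0 and 570.4 in knockouts and 2.54, 16.2 and 52.6 in controls, and Trem2, untested, at 15.7, 10.9 and 89.9 in knockouts and 1.27, 0 and 4.21 in controls. Their part in the Spp1, Mmp12 and Atp6v0d2 values, genes that macrophages also express, was not tested. Of 7 tested mast cell markers, 3 were called higher and 0 lower, against 4.12% and 2.59% of all tested genes. Mast cell markers summed to 85.2, 294 and 102 CPM in knockouts and 2.29, 2.27 and 38.3 in controls. Of the 3 called, Tpsab1 and Fcer1a were at 0 in all controls. They passed the filter on low values through the knockout libraries alone, so nothing is read from the count of mast cell markers called. T cell markers summed to 8.44, 57.6 and 88.5 CPM in knockouts and 3.98, 1.93 and 22.3 in controls. Of 7 tested, 0 were called by limma, and 4 were higher and 0 lower at an unadjusted p under 0.05. Runx3 is also expressed by T cells, and their part in its values was not tested. Endothelial markers summed to 89.4, 136 and 382 CPM in knockouts and 81.8, 52.0 and 137 in controls. Of 5 tested, 0 were called by limma, and 1 (Vwf) was higher at an unadjusted p under 0.05. Which cells carried Fgf23, Spp1 or the Runx transcripts was not tested.

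**Figure D5:**
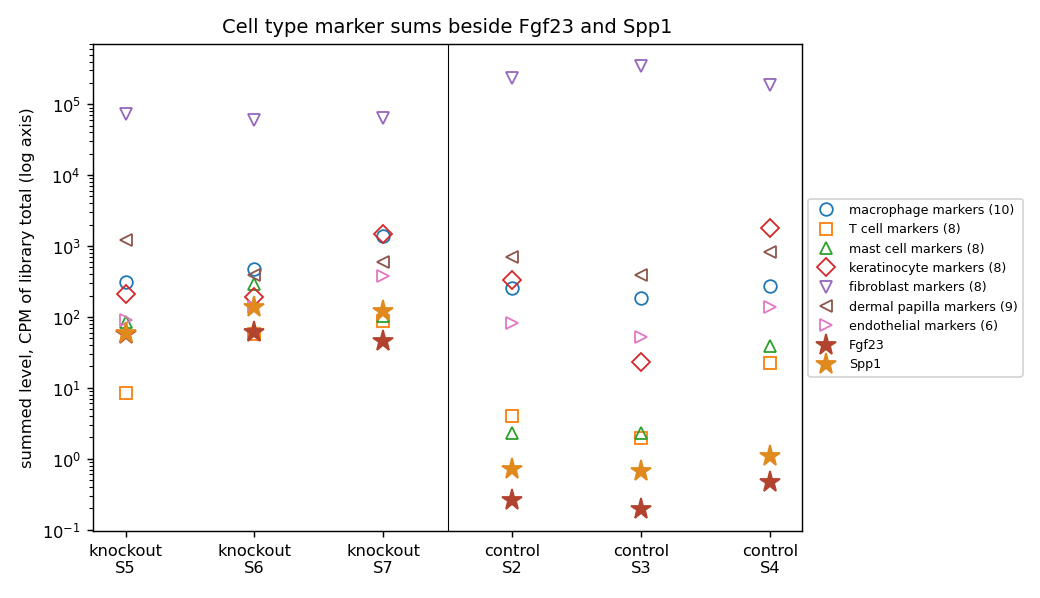
Summed level of each cell type's markers in CPM of the library total, on a log axis, with Fgf23 and Spp1 as stars, knockout libraries left and control libraries right. The number in brackets is the markers with a row. The fibroblast sum, mostly Col1a1, Col1a2 and Col3a1, is 59974 to 73053 in knockouts and 184606 to 345191 in controls. The macrophage sum is highest in knockout S7 at 1390.2.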

How the data were processed

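RNA was taken from sorted skin cells with a PureLink column kit and made into libraries with a NEBNext Ultra II kit, per the labels' protocols. Tools listed, without roles, are Partek 9.0.20.0202 and TopHat2 2.1.0, per the submitters' processing notes. The sources used here give neither build nor annotation. Per the file headers the authors deposited normalized counts, here a signal that equals estimated reads over 1 scaling factor per library (0.787 to 1.26), not scaled to length or to a common total. From the values, 78.7% to 81.2% of low values per library (up to 1000 reads) were whole reads within 0.05, so count models were not run. Estimated depth was 15310161 to 20705441 reads, and a floor of 3 reads is a normalized count of 2.39 to 3.81. Columns could be placed in a group, though not matched to single labelled samples. Since separate mice are not labelled, the spread behind each p-value may be technical.

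Group differences (knockout minus control) were fitted with limma 3.58.1 in R 4.3.3 (intensity trend, 2-sided) on log2(value + 9.15), a pseudocount of 0.5 CPM of the mean total, over 15935 genes at 1 CPM in at least 3 libraries, with Benjamini-Hochberg adjustment over all of them. The fit was tested on simulated data. The genes and lists were chosen with earlier results of these data known. All 10 genes were named, up to 4 called genes of each list by adjusted p, Zfp750 and the 4 genes most like each of Fgf23, Spp1 and Runx1 by r; other genes were named after their values were seen. Alternatives were the pseudocount, the filter, a common total, no trend and leaving out each library. Promoters are from RefSeq, GRCm38.p6.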

Additional observations from a re-analysis of the deposited data

How the results depend on the processing

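Fgf23, Spp1 and Runx1 were called higher under every alternative run, which the choice of these genes on the same contrast largely fixes. With a pseudocount of 1 the log2 differences of Fgf23 and Spp1 were 7.00 and 6.53. Leaving out 1 library gave 3 to 4 bone-type genes called higher and 0 to 2 lower, the additions being Runx2 without S4 and Sp7 and Alpl without S5. For the related lists these fits gave 7 to 17 genes higher and 0 to 4 lower. Genes called lower on the lists numbered 0 with no filter, 3 with a common total and 3 with no intensity trend (Sparc, Col1a1 and Col1a2 in both). Over all genes, leaving out 1 library gave 234 to 697 higher and 94 to 588 lower, against 657 and 413 with all 6, and a common total gave 1057 higher and 283 lower, or 78.9% higher in place of 61.4%. The causes were not tested. No paired analysis was possible because the columns do not carry the replicate numbers of the labels. With 4 to 9 control reads of Fgf23, the size of its ratio is limited by depth.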

Other observations

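These 3 list genes, picked after their values were seen, were untested (Dlx3, Slc34a2) or not called (Smpd3). Dlx3, a homeobox gene of hair follicle and bone, was at 0, 0 and 0.796 in knockout S5, S6 and S7 and at 76.2, 6.25 and 776 in control S2, S3 and S4. The phosphate transporter gene Slc34a2 was at 5.88, 1.82 and 89.9 in knockouts and 0 in all controls, where a 0 allows up to 3 reads, so knockout S6 with 2 reads was not apart from them. Smpd3, a sphingomyelinase needed for bone mineralization in mice, was at 372, 280.4 and 457 in knockouts and 599.8, 1361 and 2567 in controls, without passing (log2 difference -1.79 ± 0.48 SE, limma adjusted p = 0.0719), though called lower without control S2.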
